A study of Mus musculus with 12 samples.

Results

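Transcripts of the integrated stress response were compared between livers of CCR1 knockout and wild-type mice: Atf4, Atf3, Atf5, Ddit3, Ddit4, Trib3, Chac1, Asns, Sesn2 and Ppp1r15a. They were taken by name, as the rows of the deposited gene table with these 10 symbols, and all 10 were found among its 27912 genes. All 10 also passed the filter on low counts, which kept 17729 genes. Bulk poly(A) RNA sequencing was done on liver of male mice that had been 8 weeks old at the start and then spent 12 weeks on the CL diet, which is high in fat and cholesterol and contains cholate. The CCR1-KO group held 3 libraries (replicates 65, 66 and 67, genotype CCR1-KO), and the WT group held 3 (replicates 62, 63 and 64, C57BL/6). CCR1 is a receptor for inflammatory chemokines. Both groups ate the CL diet, so the comparison is of genotypes on that diet and does not measure the response to the diet. The sources used here do not give the construction of the knockout allele, and 6 other libraries of the series were not analysed here. The labels number the libraries but do not say that each came from a separate mouse, so p-values measure only the spread between these libraries. Where single livers are mentioned below, the word stands for single libraries.

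The integrated stress response is a shared answer to several kinds of stress. Kinases that sense a lack of amino acids, unfolded protein in the endoplasmic reticulum, viral RNA or a lack of haem phosphorylate the translation factor eIF2, which slows most protein synthesis while the mRNA of the bZIP transcription factor ATF4 is translated more. ATF4 then switches on genes of amino acid supply, further transcription factors, and feedback genes that restore translation. Because ATF4 is controlled largely at the level of translation, its mRNA level is not a measure of its protein. In liver the response is known from amino acid shortage, endoplasmic reticulum stress and fatty liver disease.

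Chac1 was higher in CCR1-KO livers, at about 3.51 times the WT mean, and it was the 1 of the 10 genes that passed the threshold (adjusted p under 0.05, edgeR's quasi-likelihood test over all 17729 genes). The share called among all tested genes was 6.44%, with 2.83% higher and 3.61% lower (43.9% of calls higher, against 20.4% without scaling factors), so 1 of 10 is close to that background. The fold changes pointed both ways: 4 had a positive and 6 a negative log2 fold change of CCR1-KO over WT, with a median of -0.03 against 0.002 over all tested genes (-0.29 against -0.30 without scaling factors). Groups did not overlap for Chac1, Trib3 and Ppp1r15a, 3 of the 10, where 32.6% of all tested genes had such groups. Trib3 had lower values and Ppp1r15a higher values in all 3 CCR1-KO livers, but both missed the threshold. An exact two-sided permutation test over the 6 libraries gave p = 0.1 for each of these 3 genes, the smallest value that 3 against 3 allow. For Atf4 itself the groups overlapped, with a log2 fold change of -0.10.

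**Figure D1:**
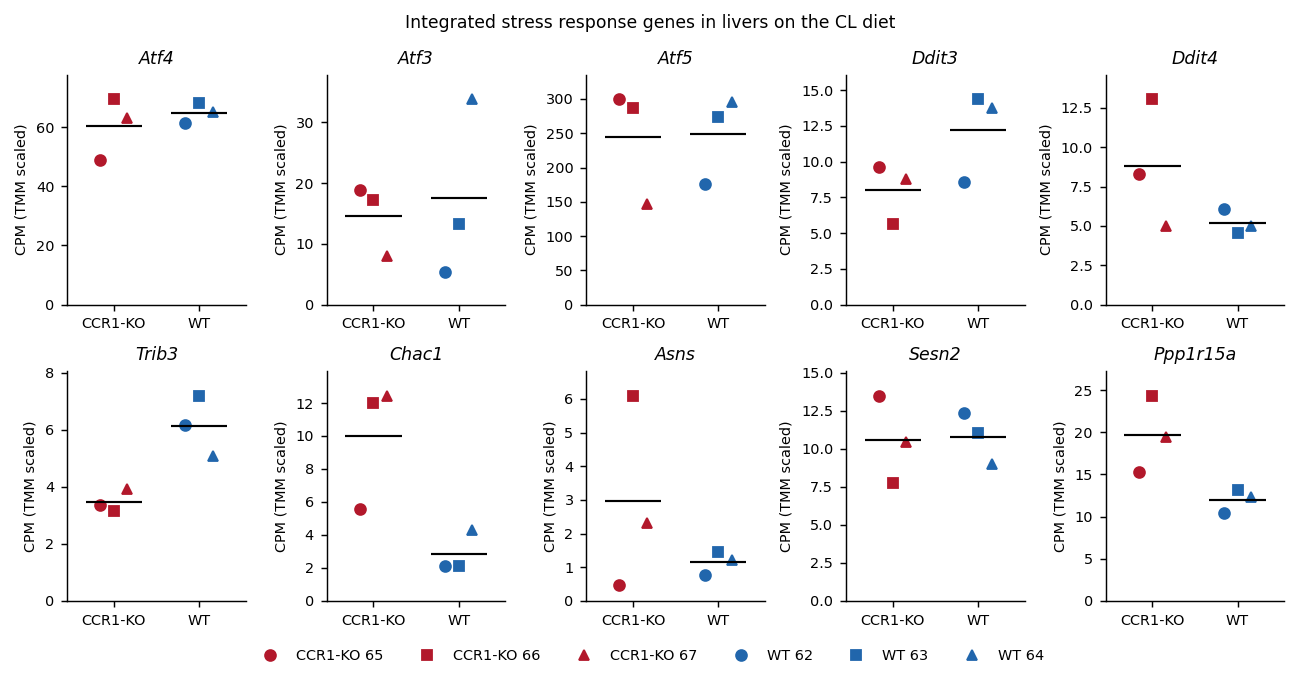
CPM (reads relative to library size, scaled with trimmed-mean, or TMM, factors) of each of the 10 genes in every library. CCR1-KO is at left and WT at right of each panel. Points are single libraries, bars are group means and every axis starts at 0. Chac1 lies between 5.6 and 12.4 CPM in CCR1-KO and between 2.11 and 4.32 CPM in WT, and Trib3 and Ppp1r15a also separate, while the other 7 genes overlap.

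Facts of the libraries bear on all values. Between 74699391 and 79154085 reads were assigned to genes per library, and 1 read was worth 0.0113 to 0.0167 CPM. Reads of the major urinary protein (Mup) genes took 3.36%, 12.2% and 15.8% of CCR1-KO libraries 65, 66 and 67, and 0.927% to 1.05% of WT libraries, so that CCR1-KO replicate 65 stood apart from the other CCR1-KO libraries in this share. Ccr1, the deleted gene, was counted at 11, 4 and 14 reads for CCR1-KO replicates 65, 66 and 67, against 100, 23 and 123 reads in WT replicates 62, 63 and 64 (log2 fold change -2.72 ± 0.76 SE, edgeR adjusted p = 0.075). Nnt, a gene known to differ between C57BL/6 substrains, has overlapping models in the files: ENSMUSG00000116207 had 0 reads in every CCR1-KO library and 25.3 ± 5.10 CPM in WT (SD, n = 3), while the other model had more reads in each CCR1-KO library than in any WT library. Genotype and substrain therefore cannot be told apart. The hepatocyte marker Alb, which encodes albumin, had 49840 to 61480 CPM in CCR1-KO and 55390 to 67350 CPM in WT. In whole tissue, fewer cells of a type and less RNA per cell cannot be told apart.

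Levels per gene length were set side by side with the authors' FPKM values. Atf5 was the highest of the 10 in all 6 libraries, with 52.8 to 145.04 FPKM in CCR1-KO and 85.6 to 158.1 FPKM in WT. Atf4 was second in all 6, with 19.1 to 23.5 FPKM in CCR1-KO and 25.2 to 29.5 FPKM in WT. Atf3, Ddit3, Ppp1r15a, Ddit4, Chac1, Sesn2 and Trib3 lay between 1.18 and 16.7 FPKM, and their order changed from library to library: Atf3 ranked anywhere from 3 to 8 and Chac1 anywhere from 3 to 9. Asns was last in 5 libraries and ranked 9 in CCR1-KO replicate 66, with 0.17 to 1.77 FPKM overall. FPKM values carry no TMM factors, and on TMM-scaled CPM the Atf4 groups overlapped.

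The sensing kinases come first in the pathway, and none of their transcripts passed the threshold. Eif2ak1 (HRI, the haem sensor), Eif2ak2 (PKR, the sensor of viral RNA), Eif2ak3 (PERK, the sensor of endoplasmic reticulum stress) and Eif2ak4 (GCN2, the sensor of amino acid shortage) were picked for their role. Eif2ak4 averaged 7.83 ± 1.07 CPM in CCR1-KO and 7.92 ± 0.298 CPM in WT, and Eif2ak3 averaged 17.1 ± 3.84 CPM in CCR1-KO and 18.8 ± 4.41 CPM in WT (SD, n = 3). Their log2 fold changes were -0.02 ± 0.16 and -0.14 ± 0.21 (SE). A list of 19 tested genes held the eIF2 kinases, eIF2, its exchange factor eIF2B and associated genes. The associated genes were Gcn1, Impact, Oma1, Dele1, Eif2a, Ppp1cc and Ppp1r15b. Of the 19, 0 passed and 19 did not, with a median log2 fold change of 0.14 (-0.16 without scaling factors). In edgeR's test 1 of the 19, the associated gene Gcn1, had an unadjusted p under 0.05, and DESeq2 and limma on FPKM called 0. These kinases act through phosphorylation, which mRNA levels do not show.

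Atf4 (ENSMUSG00000042406, chromosome 15, 80255184 to 80257541, plus strand, GRCm38) had 48.9, 69.5 and 62.9 CPM in CCR1-KO replicates 65, 66 and 67, against 61.3, 68.3 and 65.2 CPM in WT replicates 62, 63 and 64. The groups overlapped: the highest and the lowest library were both CCR1-KO. The log2 fold change was -0.10 ± 0.15 (SE), with a 95% interval from -0.45 to 0.24 and adjusted p = 0.71 in edgeR's test. Without scaling factors it was -0.43 (adjusted p = 0.14), in a fit in which the median of all genes was itself -0.30. The 250 bases before the RefSeq start of Atf4 (GRCm38.p6, chr15:80254934-80255183, plus strand) are shown because its promoter can be set beside that of Chac1, the target gene that passed. Its capitals mark 2 CCAAT boxes of 5 bases.
Atf4: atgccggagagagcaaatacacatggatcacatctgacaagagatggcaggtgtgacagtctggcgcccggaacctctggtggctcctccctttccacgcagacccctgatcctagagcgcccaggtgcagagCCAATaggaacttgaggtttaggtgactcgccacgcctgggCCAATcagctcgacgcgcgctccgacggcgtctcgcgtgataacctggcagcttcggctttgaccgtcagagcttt

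Atf5, a bZIP factor that is abundant in liver and linked to the mitochondrial unfolded protein response (ENSMUSG00000038539, chromosome 7, 44812256 to 44816658, minus strand), had 299.7, 286 and 147 CPM in CCR1-KO replicates 65, 66 and 67, against 176, 273 and 296 CPM in WT replicates 62, 63 and 64. Both groups held 1 low and 2 high libraries, and they overlapped (log2 fold change -0.02 ± 0.30 SE, 95% interval -0.71 to 0.67, edgeR adjusted p = 0.97). Atf5 overlaps Nup62, a nuclear pore gene on the other strand, by 571 bases (log2 fold change of Nup62 -0.19, edgeR adjusted p = 0.56). Atf3, a stress-induced bZIP factor (ENSMUSG00000026628, chromosome 1, 191170296 to 191218039, minus strand), was the least even in WT. It had 18.8, 17.3 and 7.93 CPM in CCR1-KO replicates 65, 66 and 67, against 5.37, 13.3 and 33.8 CPM in WT replicates 62, 63 and 64. WT replicates 62 and 64 were the lowest and the highest of all 6, 6.30 times apart, so the 95% interval of the log2 fold change was wide (-1.65 to 1.14, estimate -0.25 ± 0.60 SE, edgeR adjusted p = 0.84). Without WT replicate 64 the estimate was 0.65 and without CCR1-KO replicate 67 it was 0.04, so its sign rested on single libraries.

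Ddit3, which encodes CHOP, the factor that carries a prolonged stress response towards cell death (ENSMUSG00000025408, chromosome 10, 127290774 to 127296288, plus strand), had 9.64, 5.63 and 8.75 CPM in CCR1-KO replicates 65, 66 and 67, against 8.58, 14.4 and 13.7 CPM in WT replicates 62, 63 and 64. WT replicate 62 lay within the CCR1-KO range, and the other two WT livers lay above it. The log2 fold change was -0.61 ± 0.27 (SE), with a 95% interval of -1.22 to 0.004 and edgeR adjusted p = 0.21. Ddit3 shares 68 bases at its end with Mars1 on the other strand. Mars1, a tRNA synthetase gene, had a log2 fold change of 0.27 (edgeR adjusted p = 0.22).

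Among the target genes, Chac1 encodes a gamma-glutamyl cyclotransferase that breaks down glutathione. Chac1 (ENSMUSG00000027313, chromosome 2, 119351229 to 119354381, plus strand, GRCm38) was counted at 448, 785 and 744 reads for CCR1-KO replicates 65, 66 and 67, against 176, 187 and 380 reads for WT replicates 62, 63 and 64. Scaled, these were 5.6, 12.0 and 12.4 CPM in CCR1-KO, against 2.14, 2.11 and 4.32 CPM in WT. Every CCR1-KO liver was above every WT liver, but CCR1-KO replicate 65 and WT replicate 64 lay close to each other. The means were 10.03 ± 3.84 CPM in CCR1-KO and 2.86 ± 1.27 CPM in WT (SD, n = 3). The log2 fold change was 1.81 ± 0.40 (SE), with a 95% interval of 0.89 to 2.73 and edgeR adjusted p = 0.040. With single libraries left out the estimate stayed between 1.61 and 2.23, but of these 6 fits the call held in 1, without CCR1-KO replicate 65 (log2 fold change 2.097, edgeR adjusted p = 0.011). It was lost without CCR1-KO replicate 66 (0.12) or 67 (0.11) and without WT replicate 62 (0.13), 63 (0.14) or 64 (0.064), each a fit on 5 libraries. The call was also lost without scaling factors (log2 fold change 1.44, adjusted p = 0.058), with no filter on low counts (1.79, adjusted p = 0.056) and with limma on FPKM without a filter (1.26, adjusted p = 0.10), and it held in the other 7 of 10 such settings.

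The 250 bases before the RefSeq start of Chac1 (GRCm38.p6, chr2:119350992-119351241, plus strand) are shown because it was the member that passed. Capitals mark, in this order, an 8-base match to the core of the ATF4 composite element and 3 CCAAT boxes.
Chac1: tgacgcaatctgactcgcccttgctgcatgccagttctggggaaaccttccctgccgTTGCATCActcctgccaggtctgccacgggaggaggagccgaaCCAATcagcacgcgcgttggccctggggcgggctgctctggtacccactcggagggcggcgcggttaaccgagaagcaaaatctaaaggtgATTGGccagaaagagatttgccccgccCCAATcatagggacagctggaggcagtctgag

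By the centred log2 CPM profile over the 6 libraries, the 3 genes nearest to Chac1 among 9162 candidates were Hsph1, a cytosolic heat shock protein (root mean square difference 0.275 log2 units), Acmsd, a decarboxylase of tryptophan breakdown (0.282), and Maff, a small MAF bZIP factor (0.299). Hsph1 had 118, 173 and 227 CPM in CCR1-KO replicates 65, 66 and 67, against 32.9, 38.9 and 50.8 CPM in WT replicates 62, 63 and 64. Maff had 9.04, 32.6 and 34.5 CPM in CCR1-KO, against 5.13, 5.35 and 7.72 CPM in WT. The likeness chose these genes, so their differences between groups add nothing to that of Chac1.

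Asns, the asparagine synthetase and a classic ATF4 target (ENSMUSG00000029752, chromosome 6, 7675169 to 7693254, minus strand), was the most variable of the 10. Its counts were 38, 398 and 139 reads for CCR1-KO replicates 65, 66 and 67, against 64, 129 and 108 reads in WT replicates 62, 63 and 64. That is 0.475, 6.10 and 2.33 CPM in CCR1-KO, against 0.778, 1.46 and 1.23 CPM in WT. CCR1-KO replicate 65 was the lowest and replicate 66 the highest library of all, 12.8 times apart, with all WT livers between them. The log2 fold change of 1.36 ± 0.76 (SE) therefore had a 95% interval of -0.40 to 3.11 (edgeR adjusted p = 0.31). Without CCR1-KO replicate 65 it became 1.87 with adjusted p = 0.040, and without CCR1-KO replicate 66 it was 0.27 with adjusted p = 0.88.

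The feedback genes gave the other differences without overlap among the 10, in opposite directions, where 32.6% of all tested genes had such groups. Trib3 encodes a pseudokinase that ATF4 and CHOP induce and that in turn restrains them and binds the kinase AKT. Trib3 (ENSMUSG00000032715, chromosome 2, 152337422 to 152344032, minus strand, GRCm38) had 3.35, 3.14 and 3.93 CPM in CCR1-KO replicates 65, 66 and 67, against 6.17, 7.21 and 5.09 CPM in WT replicates 62, 63 and 64. All CCR1-KO livers were below all WT livers, and the CCR1-KO values lay close together (3.48 ± 0.409 CPM in CCR1-KO and 6.16 ± 1.06 CPM in WT, SD, n = 3). The log2 fold change was -0.83 ± 0.21 (SE, 95% interval -1.30 to -0.35), and edgeR's adjusted p of 0.058 missed the threshold. It passed in 5 of 10 other settings, among them DESeq2 (adjusted p = 0.0063) and edgeR without scaling factors (log2 fold change -1.13, adjusted p = 0.035), and in 0 of the 6 fits without 1 library. Apart from DESeq2, the settings that passed were edgeR without scaling factors and limma on filtered FPKM, which carries no TMM factors. In those fits the median of all genes lay between -0.30 and -0.19. Trib3 missed the threshold in edgeR with median-ratio factors (adjusted p = 0.0605) or TMM factors without Mup genes (0.0587). It also missed with limma on TMM-scaled log2 CPM (adjusted p = 0.0502).

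Ppp1r15a encodes GADD34, the subunit that directs protein phosphatase 1 to eIF2 and so ends the response. Ppp1r15a (ENSMUSG00000040435, chromosome 7, 45522916 to 45526268, minus strand, GRCm38) had 15.3, 24.4 and 19.5 CPM in CCR1-KO replicates 65, 66 and 67, against 10.4, 13.2 and 12.3 CPM in WT replicates 62, 63 and 64. All CCR1-KO livers were above all WT livers. The log2 fold change was 0.72 ± 0.19 (SE, 95% interval 0.28 to 1.16), with an edgeR adjusted p of 0.065. It passed with DESeq2 (adjusted p = 0.0098) and without CCR1-KO replicate 65 (adjusted p = 0.019), and the estimate was 0.40 without scaling factors. Its constitutive paralog Ppp1r15b, picked for its role, averaged 107.3 ± 21.5 CPM in CCR1-KO and 90.7 ± 8.47 CPM in WT (SD, n = 3, edgeR adjusted p = 0.42). Ppp1r15a overlaps Tulp2 on the other strand by 717 bases, but Tulp2 had only 18 to 75 reads per library.

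Ddit4 and Sesn2 encode proteins that restrain mTORC1, a growth-promoting kinase complex. Ddit4, also known as REDD1 (ENSMUSG00000020108, chromosome 10, 59949669 to 59951834, minus strand), acts through the TSC complex and is known to respond to glucocorticoids as well as to ATF4. It had 8.32, 13.1 and 4.97 CPM in CCR1-KO replicates 65, 66 and 67, against 6.07, 4.53 and 4.99 CPM in WT replicates 62, 63 and 64. CCR1-KO replicate 67 lay within the WT range and the other two CCR1-KO livers lay above it (log2 fold change 0.76 ± 0.33 SE, 95% interval -0.009 to 1.52, edgeR adjusted p = 0.21). Sesn2, a leucine sensor that acts on GATOR2 (ENSMUSG00000028893, chromosome 4, 132492032 to 132510501, minus strand), had 13.5, 7.74 and 10.4 CPM in CCR1-KO replicates 65, 66 and 67, against 12.3, 11.0 and 9.02 CPM in WT replicates 62, 63 and 64. The WT range lay inside the CCR1-KO range (log2 fold change -0.03 ± 0.22 SE, 95% interval -0.55 to 0.49, edgeR adjusted p = 0.95). It holds Gm12981 on its own strand, which had 0 to 14 reads per library. Of 26 tested genes of mTORC1, its amino acid sensors and effectors, Wdr59, a GATOR2 subunit, rose (log2 fold change 0.72, edgeR adjusted p = 0.032). Mlst8, a core subunit, fell (-0.80, adjusted p = 0.041), and 24 did not pass (median log2 fold change 0.01, and -0.28 without scaling factors). The count was 0 in the fits without CCR1-KO replicate 66 or 67 or WT replicate 62, 63 or 64, and 4 without CCR1-KO replicate 65 and with DESeq2. The share of all tested genes called was 0.558% to 2.14% in the former fits. It was 13.2% without CCR1-KO replicate 65 and 14.2% with DESeq2.

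Because CCR1-KO replicate 65 stood apart in its Mup share, each estimate was also taken without it. The log2 fold changes were then 0.03 for Atf4, -0.47 for Atf3, -0.20 for Atf5, -0.77 for Ddit3, 0.79 for Ddit4 and -0.80 for Trib3. They were 2.097 for Chac1, 1.87 for Asns, -0.25 for Sesn2 and 0.87 for Ppp1r15a, and Chac1, Asns and Ppp1r15a passed. In that fit 13.2% of all tested genes were called.

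**Figure D2:**
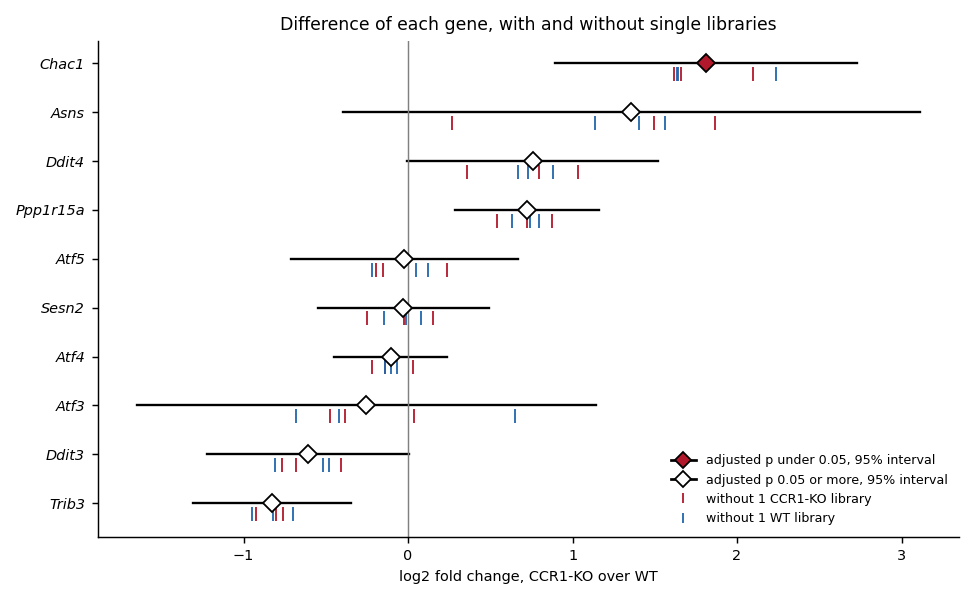
Log2 fold change of CCR1-KO over WT for each of the 10 genes, with diamonds for the estimate from 6 libraries, lines for its 95% interval and ticks below for the estimates without 1 library. Chac1 at 1.81 is the filled diamond past the threshold, Trib3 at -0.83 is the lowest, and the ticks of Atf3, Atf4, Atf5 and Sesn2 fall on both sides of 0.

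Ratios within a library do not depend on the scaling between libraries, and were computed after the values above were seen. Of 9 ratios to Atf4, taken from FPKM values, 3 had groups that did not overlap, where 27.2% of all other tested genes had such groups in their ratio to Atf4. The FPKM of Atf4, which enters every ratio, was itself lower in each CCR1-KO liver than in any WT liver. Chac1 over Atf4 was 0.165, 0.249 and 0.285 in CCR1-KO replicates 65, 66 and 67, against 0.050, 0.0444 and 0.0951 in WT replicates 62, 63 and 64. Ppp1r15a over Atf4 was the most even, at 0.260 ± 0.0184 in CCR1-KO and 0.147 ± 0.00981 in WT (SD, n = 3), 1.77 times as high. Trib3 over Atf4 was 0.0652 ± 0.0134 in CCR1-KO and 0.105 ± 0.0163 in WT. Chac1 over Trib3, a pair of target genes that split, was 2.17, 4.97 and 4.12 in CCR1-KO replicates 65, 66 and 67, against 0.448, 0.381 and 1.10 in WT replicates 62, 63 and 64. In each CCR1-KO liver Chac1 had the higher FPKM of the pair, and in WT only replicate 64 did. The FPKM of Chac1 and Ppp1r15a was higher, and that of Atf4 and Trib3 lower, in each CCR1-KO liver than in any WT liver. The ratios Chac1 over Atf4, Ppp1r15a over Atf4 and Chac1 over Trib3 therefore had to separate, and their separation adds nothing to those values. All these ratios are descriptions with no test.

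**Figure D3:**
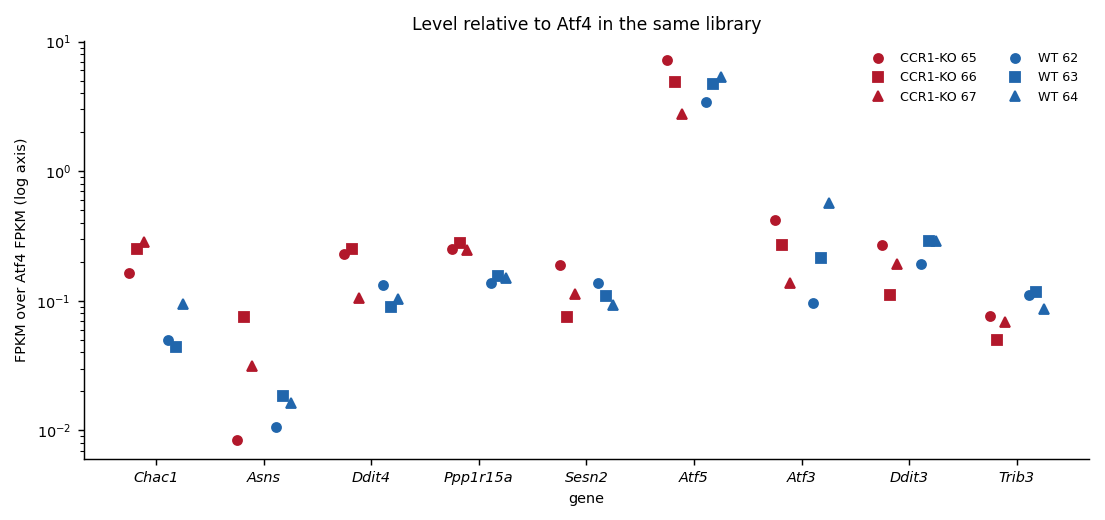
FPKM of 9 genes divided by the FPKM of Atf4 in the same library, on a log axis. CCR1-KO is left of WT for each gene, with 1 point per library. Chac1, Ppp1r15a and Trib3 are the 3 genes whose groups do not overlap.

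The promoters were searched for short motifs, to show what the genes share in sequence. RefSeq windows of 300 bases (250 before to 50 after the start, GRCm38.p6) were found for all 10 genes, 11 windows in all because Atf5 has 2. The core of the composite element bound by ATF4 with C/EBP factors, searched as TGATGNAA on both strands, was found in 4 of these 11 windows and in 3.97% of all 32817 windows. The first bases of the matches lie 193 bases before the start of Chac1, 110 before that of Atf3, 23 before that of Asns and 14 after that of Trib3. For Atf3 the RefSeq window (chromosome 1, 191183284 to 191183583, minus strand) lies inside the gene model given above. The start of that model, at 191218039, was not searched. The cAMP response element TGACGTCA, which reads the same on both strands, was found in 1 of the 11 windows, 12 bases before the start of Ppp1r15a, and in 1.79% of all windows. The AP-1 motif TGANTCA was found in 1 of the 11, 242 bases before the start of Ddit3, and in 7.81% of all windows; CCAAT was found in 7 of the 11 and in 37.4%. Genes with the composite core included Chac1, with higher values in CCR1-KO, and Trib3, with lower values. A match is a run of letters and not evidence of binding. The matches are given with 8 bases on each side, read along the gene's strand, with the motif in capitals; the composite core reads TTGCATCA or TTACATCA where it matched the other strand.
Chac1: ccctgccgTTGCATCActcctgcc
Trib3: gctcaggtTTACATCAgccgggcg
Atf3: tctcgcacTTGCATCAccaagtcc
Asns: cagccacaTGATGAAActtcccgc
Ppp1r15a: ctctccggTGACGTCAgcacagcg

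Other targets of ATF4 moved in both directions. Of 12 tested amino acid transporter genes 2 rose, 0 fell and 10 did not pass, with a median log2 fold change of -0.14 (-0.46 without scaling factors). Slc38a2, the transporter SNAT2 that amino acid shortage induces, had 135, 317 and 319.8 CPM in CCR1-KO replicates 65, 66 and 67, against 67.6, 51.3 and 55.99 CPM in WT replicates 62, 63 and 64 (log2 fold change 2.14 ± 0.32 SE, edgeR adjusted p = 0.015). Every CCR1-KO liver was above every WT liver, with replicate 65 again the lowest of its group. Slc43a1, a carrier of large neutral amino acids, rose to 12.9 ± 7.12 CPM in CCR1-KO, against 2.90 ± 0.696 CPM in WT (SD, n = 3, log2 fold change 2.15, edgeR adjusted p = 0.039). Of 13 tested genes of serine, proline, folate and transsulfuration enzymes 2 rose, 3 fell and 8 did not pass (median 0.14, and -0.17 without scaling factors). Cbs, the first enzyme of transsulfuration, rose (log2 fold change 0.83, edgeR adjusted p = 0.032) and the aspartate aminotransferase Got1 rose (1.06, adjusted p = 0.049). The mitochondrial folate enzyme Mthfd1l fell (-1.61, adjusted p = 0.029) and the proline synthesis enzyme Aldh18a1 fell (-1.94, adjusted p = 0.047). Aldh1l2, a mitochondrial folate dehydrogenase, was counted at 0, 0 and 1 reads for CCR1-KO replicates 65, 66 and 67, against 26, 14 and 31 reads in WT replicates 62, 63 and 64, a ratio of 0.0178 with an exact 95% counting interval of 0.000444 to 0.102 (edgeR adjusted p = 0.033). Of 20 tested cytosolic tRNA synthetases 0 passed in edgeR's test, DESeq2 or limma on FPKM, and 1 had an unadjusted p under 0.05 (median 0.10, and -0.21 without scaling factors). The transporter calls numbered 4 without CCR1-KO replicate 65, 1 without replicate 66 or 67, and 0 without any 1 of the WT libraries, and 4 with DESeq2. The enzyme calls numbered 6 without CCR1-KO replicate 65, 0 without any other single library and 3 without scaling factors. Over all tested genes, 13.2% were called without CCR1-KO replicate 65 and 0.558% to 2.14% without any other single library. With DESeq2 the share was 14.2%, and without scaling factors 6.07%.

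Of 28 tested further targets of ATF4 and CHOP 3 rose, 0 fell and 25 did not pass (median log2 fold change -0.02). Herpud1, an endoplasmic reticulum protein that helps degradation, reached 680.1 ± 204 CPM in CCR1-KO, against 233 ± 6.34 CPM in WT (SD, n = 3, log2 fold change 1.54 ± 0.22 SE, edgeR adjusted p = 0.013). Txnip, a regulator of thioredoxin, rose (0.98, adjusted p = 0.022), and so did Dnajc3, an inhibitor of eIF2 kinases (0.65, adjusted p = 0.046). The hormones Fgf21 and Gdf15, both known as signals of this response and picked for that role, did not pass. Fgf21 had 9.77, 9.10 and 4.79 CPM in CCR1-KO replicates 65, 66 and 67, against 10.8, 18.2 and 18.3 CPM in WT replicates 62, 63 and 64 (log2 fold change -1.0 ± 0.31 SE, edgeR adjusted p = 0.098). Its groups did not overlap, where 32.6% of all tested genes had such groups. Gdf15 averaged 44.6 ± 31.9 CPM in CCR1-KO and 56.1 ± 21.6 CPM in WT (SD, n = 3, adjusted p = 0.73). The count of calls was 10 without CCR1-KO replicate 65, 1 without replicate 66 or 67 and 0 without any 1 WT library, and 9 with DESeq2. Over all tested genes, 13.2% were called without CCR1-KO replicate 65, 0.558% to 2.14% without any other single library and 14.2% with DESeq2.

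Among paralogs of the members and related bZIP genes, Trib1, a pseudokinase related to Trib3, rose. It reached 84.97, 127 and 132 CPM in CCR1-KO replicates 65, 66 and 67, against 55.01, 62.5 and 72.6 CPM in WT replicates 62, 63 and 64 (log2 fold change 0.85 ± 0.19 SE, edgeR adjusted p = 0.043). Creb3l1, a membrane-bound bZIP factor, fell (-1.69, adjusted p = 0.019), and the other 20 of 22 tested paralogs did not pass (median 0.11, and -0.20 without scaling factors). Of 18 tested bZIP partners 3 rose, 0 fell and 15 did not pass (median 0.24, and -0.07 without scaling factors). Cebpd rose to 19.1 ± 2.89 CPM in CCR1-KO, against 5.63 ± 0.0480 CPM in WT (SD, n = 3, log2 fold change 1.76 ± 0.15 SE, edgeR adjusted p = 0.0033). Maff, described beside Chac1, rose as well (2.06, adjusted p = 0.042). The paralog count was 5 without CCR1-KO replicate 65 and with DESeq2, 1 without scaling factors and 0 without any other single library. The partner count was 1 without WT replicate 63 and 2 to 4 without any other 1 library, and 5 with DESeq2. Over all tested genes, 13.2% were called without CCR1-KO replicate 65 and 0.558% to 2.14% without any other single library. With DESeq2 the share was 14.2%, and without scaling factors 6.07%.

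**Figure D4:**
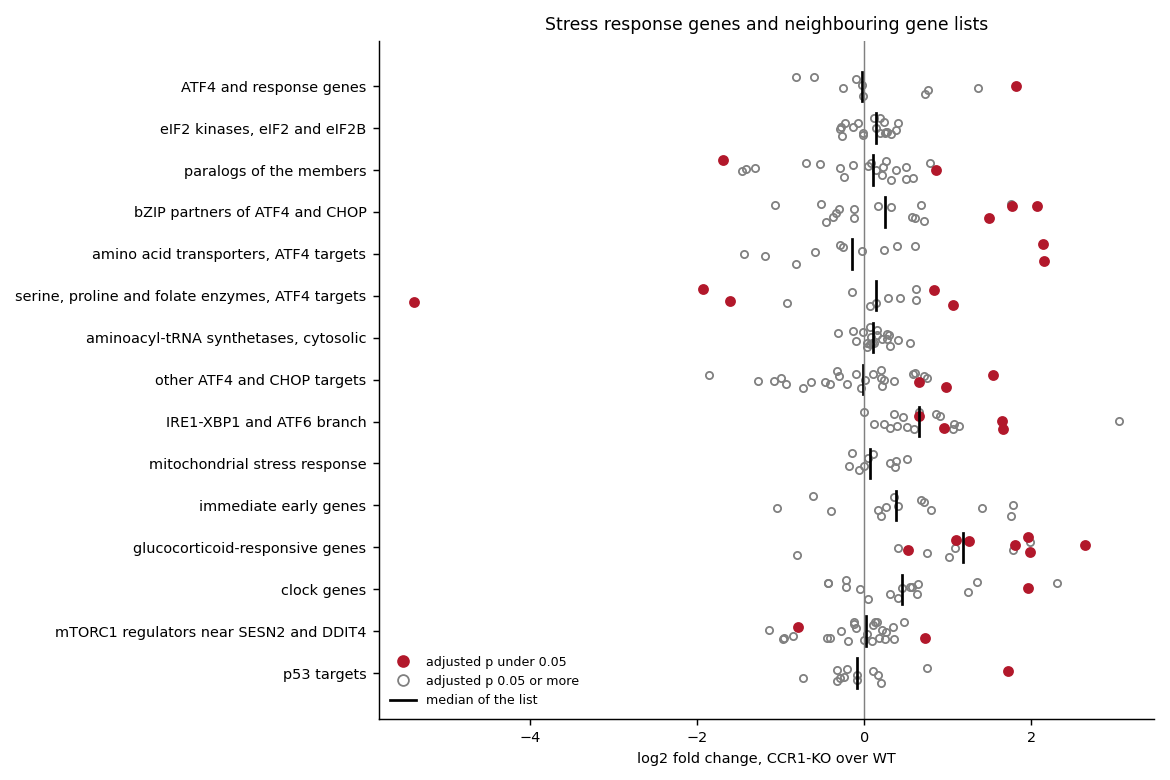
Log2 fold change of CCR1-KO over WT for every tested gene of the 10 members and of 14 neighbouring lists, with filled points for genes past the threshold, open points for the rest and bars for list medians. The medians of the IRE1-XBP1 and ATF6 list (0.66) and of the glucocorticoid list (1.18) are the highest, and those of the other lists and of the members lie between -0.14 and 0.45.

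A pair of gene groups outside the ATF4 branch had the highest medians of the 14 lists, which were 0.33 for the IRE1-XBP1 and ATF6 branch and 0.89 for glucocorticoid-responsive genes without scaling factors. Of 20 tested genes of the IRE1-XBP1 and ATF6 branch of the unfolded protein response 4 rose, 0 fell and 16 did not pass (median log2 fold change 0.66). Dnajb11 (0.96, edgeR adjusted p = 0.022), Creld2 (1.66, adjusted p = 0.035), Sdf2l1 (1.64, adjusted p = 0.037) and Dnajc3, proteins that help folding in the endoplasmic reticulum, were the 4, and Dnajc3 is also in the list of further targets above. The count was 9 without CCR1-KO replicate 65, 1 without WT replicate 64 and 0 without any other single library, 1 without scaling factors and 13 with DESeq2. Over all tested genes, 13.2% were called without CCR1-KO replicate 65 and 0.558% to 2.14% without any other single library. Without scaling factors the share was 6.07%, and with DESeq2 14.2%. Of 14 tested glucocorticoid-responsive genes 7 rose, 0 fell and 7 did not pass (median 1.18). Per1, a clock gene that glucocorticoids induce, rose to 42.6, 55.9 and 48.3 CPM in CCR1-KO replicates 65, 66 and 67, against 14.3, 12.1 and 11.3 CPM in WT replicates 62, 63 and 64 (log2 fold change 1.96 ± 0.15 SE, edgeR adjusted p = 0.0022). Pck1, of gluconeogenesis (1.98, adjusted p = 0.0024), and Angptl4, an inhibitor of lipoprotein lipase (1.10, adjusted p = 0.012), had the next smallest p-values. The glucocorticoid count was 8 without CCR1-KO replicate 65, 4 and 5 without replicates 66 and 67, and 2 without any 1 of the WT libraries. The summed level of the list was 5902, 8937 and 7568 CPM in CCR1-KO replicates 65, 66 and 67, against 2188 to 2320 CPM in WT. Its order differed from that of Ddit4: replicate 67 had the second highest sum and the lowest Ddit4 level of the CCR1-KO livers, inside the WT range. The part of this in the Ddit4 values was not tested.

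Of 17 tested clock genes Per1 was the 1 that passed (median 0.45, and 0.07 without scaling factors), and without CCR1-KO replicate 65 the count was 9. With DESeq2 it was 3. Of 14 immediate early genes 0 passed in edgeR's test, DESeq2 or limma on FPKM, with 2 at an unadjusted p under 0.05 (median 0.38, and 0.09 without scaling factors). Their summed level was 1122 to 1474 CPM in CCR1-KO and 387 to 1206 CPM in WT. Of 10 mitochondrial stress genes 0 passed in any of these 3 tools, with 2 at an unadjusted p under 0.05 (median 0.07, and -0.24 without scaling factors). Of 13 p53 targets Trp53inp1 rose (log2 fold change 1.72, edgeR adjusted p = 0.0047) while 12 did not pass, and the count was 4 without CCR1-KO replicate 65. Over all tested genes, 13.2% were called without CCR1-KO replicate 65 and 14.2% with DESeq2.

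Markers of other liver cells differed between the groups beside these genes. Of 7 tested hepatic stellate cell markers 0 rose, 5 fell and 2 did not pass (those that fell were Col3a1, Dcn, Lrat, Reln and Col1a1), and their summed level was 185 to 203 CPM in CCR1-KO and 366 to 777 CPM in WT. The stellate count was 3 without CCR1-KO replicate 65, 0 without replicate 66 and 1 without replicate 67 or any 1 WT library. Of 5 cholangiocyte markers Spp1 fell, with 37.1 to 44.5 CPM in CCR1-KO and 111 to 180 CPM in WT. The other 4 did not pass, and all 5 had negative log2 fold changes. Spp1 made up most of the sum of the 5 (42.2 to 48.99 CPM in CCR1-KO and 118 to 190 CPM in WT). Of 9 macrophage markers Trem2 fell, and the sum was 282, 121 and 130 CPM in CCR1-KO replicates 65, 66 and 67, against 150 to 247 CPM in WT. Of 9 lymphocyte markers Cd4 rose and the other 8 had negative log2 fold changes without passing (median of the 9 -0.42). The sum of these 8 was 1.548 to 3.74 CPM in CCR1-KO and 2.72 to 5.45 CPM in WT. Of 5 endothelial markers 0 passed in edgeR's test or DESeq2, with 0 at an unadjusted p under 0.05 (101 to 137 CPM in CCR1-KO and 105 to 147 CPM in WT), and of 5 red blood cell markers 0 passed in either, with 1 at an unadjusted p under 0.05 (245 to 672 CPM in CCR1-KO and 291 to 494 CPM in WT). Of 6 hepatocyte markers Serpina1c and Cps1 rose and the other 4 did not pass. Serpina1c had 6097 to 8592 CPM in CCR1-KO and 2612 to 3155 CPM in WT. Cps1 had 1571 to 3420 CPM in CCR1-KO and 859.6 to 1130 CPM in WT. The 6 markers, mostly Alb, summed to 68740 to 85850 CPM in CCR1-KO and 68360 to 82520 CPM in WT. Granulocyte markers summed to at most 1.07 CPM in any library, with the defining Ly6g at 0 reads in 5 of 6. Of 2 tested markers of neighbouring tissue Cela1, an elastase gene, rose. Upk3b, the other marker, pointed the opposite way without passing (log2 fold change -1.83). Its level ranged from 0 to 0.753 CPM in CCR1-KO and from 0.486 to 2.49 CPM in WT, so its groups overlapped. The sum of both was mostly Cela1, at 13.6 to 27.2 CPM in CCR1-KO and 8.82 to 10.4 CPM in WT. The calls of Trem2, of both hepatocyte markers and of Cela1 also depended on single libraries. So did the share of all tested genes called, which was 6.44% with all 6 libraries. It was 13.2% without CCR1-KO replicate 65 and 0.558% to 2.14% without any other 1 library. The macrophage count was 4 without CCR1-KO replicate 65 and 0 without any other 1 library. The hepatocyte count was 3 without CCR1-KO replicate 65, 1 without replicate 66 or 67 or WT replicate 62, and 0 without WT replicate 63 or 64. The neighbouring tissue count was 1 without CCR1-KO replicate 65 and 0 without any other 1 library, and the lymphocyte count was 0 without WT replicate 63 or 64. Without CCR1-KO replicate 65, 1 endothelial and 2 red blood cell markers passed. The cholangiocyte count was 1 without any 1 library. The part of cell makeup in the differences of the 10 genes was not tested.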

How the data were processed

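The members and gene lists were chosen with earlier results of these data known. HISAT2 2.2.1, StringTie 2.1.6, cutadapt 1.9, edgeR and DESeq2 are listed in no stated role, per the submitters' processing notes. Those notes name a human build (GRCh38), whereas gene IDs are murine and positions match GRCm38. The table deposited by the authors holds, per the file headers, a whole-number read count and an FPKM value (fragments relative to gene length and library size) per gene and library. The kit marks strand, per the labels' protocols, but the sources used here do not say whether counting used it or how reads matching several genes were treated, so reads of overlapping genes cannot be told apart.

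Counts were tested with edgeR 4.0.16 in R 4.3.3 (filterByExpr with a minimum count of 10 and a minimum total of 15, TMM factors, glmQLFit and glmQLFTest, CCR1-KO against WT, no covariate), with Benjamini-Hochberg adjustment over 17729 genes and a threshold of 0.05. Standard errors were derived from F and the log2 fold change, and 95% intervals use 7.86 degrees of freedom. limma 3.58.1, DESeq2 1.42.0 and other settings served as alternatives. Pairs of replicates differed by more than sampling noise (chi-square per degree of freedom at least 62.8). Exact counting intervals cover counting error only, and 3 libraries per group limit the precision more than depth does.

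Lists were also counted under each alternative, a choice made after seeing the data. Named genes were the 10 members; up to 3 genes of smallest p per list among those past the threshold, or all where 5 or fewer passed; and the 3 genes nearest in profile to each member past the threshold, with mean FPKM of at least 1. A gene that this rule names is not reported here. Genes said to be picked for their role were added after values were seen. Promoters of Atf4 and of members past the threshold were printed. All libraries of both groups had 74699391 reads or more.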

Additional observations from a re-analysis of the deposited data

How the results depend on the processing

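The count of called genes, 1141, was 735 with no filter on low counts, 2521 with DESeq2, 239 with limma on FPKM without a filter, and 102 to 2419 with 1 library left out. It stayed within 1.5 times in the other 7 settings tried. The number of the 10 members called, 1, was 0 with no filter on low counts and with limma on FPKM without a filter, 2 with limma on filtered FPKM at pseudocounts of 0.5, 0.1 and 1, 3 with DESeq2, and 0 to 3 with 1 library left out. It was 1 in the other settings, but without scaling factors the 1 was Trib3, lower, in place of Chac1. The share of all tested genes called moved as well. It was 6.44% in the main fit, 14.2% with DESeq2 and 9.49% to 10.8% with limma on filtered FPKM. With no filter on low counts it was 2.63%, with limma on FPKM without a filter 0.869%, and with 1 library left out 0.558% to 13.2%. Of called genes 43.9% were higher, against 20.4% without scaling factors and 17.0% with limma on FPKM, where the median of all genes moved to -0.30 and -0.23. The causes were not tested.

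Chac1, Asns, Ddit4, Ppp1r15a, Trib3 and Ddit3 kept their sign in all 16 alternatives. For the 4 others the sign turned in some, with no call in any. Without 1 library, Atf4 ran from -0.217 to 0.027, Atf3 from -0.684 to 0.652, Atf5 from -0.219 to 0.235 and Sesn2 from -0.247 to 0.152 (log2 fold change), and Atf3 was 0.031 with limma on log2 CPM, a setting added after seeing the data. Asns was tested on as few as 38 reads in a library, the lowest count of any of the 10 genes. No paired analysis was possible because the groups share no replicate numbers.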
